A study of Danio rerio with 12 samples.

Results

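Among the accessible regions of zebrafish skeletal cells, 990 were held by head chondrocytes, the cells of head cartilage, and by none of the other 3 groups sorted beside them. Cells came from wild-type larvae at 15 days post fertilisation that all carried entpd5a:Gal4FF;UAS:GFP, a green reporter of bone-forming cells, and R2col2a1a:mCherry, a red reporter under the R2 enhancer of col2a1a, which encodes a collagen of cartilage. The 4 groups were head chondrocytes and trunk chondrocytes (red and not green), and head and trunk osteoblasts (green and not red), with 3 ATAC-seq libraries each, labelled as biological replicates. Head osteoblasts are termed classical in the labels, trunk osteoblasts non-classical, and chondrocytes of the trunk came from between the segments of the spine. ATAC-seq marks accessible chromatin with a transposase that inserts sequencing adapters there, and the deposited values are summits, single bases at the top of called peaks, each with the authors' score. Neighbouring summits of any of the 12 lists, at most 250 bp apart, were chained, which gave 133213 regions. Each library was cut to its strongest 8407 summits, the length of the shortest list (trunk chondrocyte replicate 3), and a group held a region when at least 2 of its 3 libraries kept a summit in it. The 990 were 7.31% of the 13540 regions held by at least 1 group and 12.1% of the 8212 held by head chondrocytes.

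Chondrocytes build cartilage under the transcription factor Sox9 and its partners Sox5 and Sox6, which act through enhancers at genes of the cartilage matrix. The cells of most head cartilage descend from cranial neural crest, while cartilage of the trunk descends from mesoderm. Distal enhancers differ between cell types more than promoters do, which is why accessible regions are used to compare related cells. An annotation or sequence of the files' own build was not used here, so neither the genes beside the regions nor marker genes of the sorted cells are reported, and the cell type names rest on the labels. In sorted bulk samples, accessibility in fewer cells and lower accessibility per cell cannot be told apart.

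Head chondrocyte lists held 79517, 51158 and 46446 summits in replicates 1 to 3, against 8407 to 55274 in trunk chondrocytes, 28911 to 78652 in head osteoblasts and 20380 to 64219 in trunk osteoblasts. Read counts were not used here, so depth is not known, and list length is at most an indirect sign of it. Because every library entered the choice, the values of the 990 regions are given as a description with no test. A region missing from a list had no called summit there, which does not show closed chromatin.

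In head chondrocytes the 990 regions were of middle to low strength within the part of the list that was used. Of them, 441 (44.5%) were kept in all 3 head chondrocyte libraries and 549 (55.5%) in 2 of 3. Regions held by trunk chondrocytes, head osteoblasts or trunk osteoblasts alone were kept in all 3 libraries of their group in 30.3%, 41.9% and 30.5%. Head chondrocyte replicate 1 kept 833 of the 990 regions, replicate 2 kept 868 and replicate 3 kept 720. Among those of the 990 kept in 2 libraries, the one without a kept summit was replicate 3 in 270, replicate 1 in 157 and replicate 2 in 122. In that library the summit had a median rank of 10608 in replicate 3, 9964 in replicate 1 and 9459 in replicate 2. With full lists, 986 of the 990 regions (99.6%) were found in every head chondrocyte library. So were 12295 of all 13540 held regions, and 4078 of the 4088 held by all 4 groups. For the 990, the rule had already required 2 of the 3 libraries.

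The rank that decided whether head chondrocytes held a region, the second best of their 3 libraries, had a median of 6766 over the 990 regions and lay between 3886 and 8275 in the middle 90% of them. In the 1746 regions held by both chondrocyte groups and neither osteoblast group that median was 4311, and in the 4088 regions held by all 4 groups it was 2784. None of the 990 reached a second rank of 1000, and 57 (5.76%) reached 4000. At the limit the score was 171.8 in replicate 1, 53.2 in replicate 2 and 38.9 in replicate 3, with the first summit left out at nearly the same score. It was 15.8, 74.5 and 1.31 in trunk chondrocyte replicates 1, 2 and 3, the last being the end of that list. In the osteoblast libraries it ran from 9.61 to 99.95, so a kept summit did not mean the same score in each library. Within 420 ranks inside the limit lay the second rank of 136 of the regions (13.7%), and 185 further regions missed the choice only because that rank lay up to 420 past the limit. In 88 of the 990 another group would have held the region within the next 420 ranks, and 96 regions were lost to the choice because another group held them only within the last 420.

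The count itself moved with single libraries. With both remaining libraries of the shortened group required to hold a region, it was 598 without head chondrocyte replicate 1, 563 without replicate 2 and 711 without replicate 3. Leaving out replicate 1 of trunk chondrocytes gave 1546, and leaving out their replicate 2 gave 1579, where the short list of replicate 3 had to take part for trunk chondrocytes to hold a region. Without any 1 of the 6 osteoblast libraries it was between 1019 and 1058. The 441 regions kept in all head chondrocyte libraries became 804 and 820 without trunk chondrocyte replicate 1 or 2, and 711 were kept in both others without head chondrocyte replicate 3.

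Almost all 990 regions also had a summit somewhere in another group. With full lists, 989 had a summit in at least 1 of the other 9 libraries and 734 (74.1%) in at least 5, while 23 (2.32%) had one in all 9. Of all 13540 held regions 13539 had a summit in at least 1 of these 9 libraries, 93.2% in at least 5 and 37.9% in all 9. The 13540 include regions that the other groups held, which the choice left out of the 990. The choice thus favours lower shares for the 990, in this comparison and in those that follow. At least 1 trunk chondrocyte list held 986 (99.6%), at least 1 head osteoblast list 926 (93.5%) and at least 1 trunk osteoblast list 769 (77.7%). Over all 13540 held regions the same shares were 96.0%, 97.2% and 94.9%. Without trunk osteoblast replicate 3, whose list is the longest of its group, 506 of the 1019 regions then chosen were in a trunk osteoblast list. A summit in all 3 lists of a group was less frequent: 444 regions (44.8%) had one in every head osteoblast list, where the share over all held regions was 81.4%, 226 (22.8%) in every trunk osteoblast list against 72.2%, and 90 (9.09%) in every trunk chondrocyte list against 50.3%, the last limited by the 8407 summits of replicate 3. The single region with no summit in the 9 other lists became 9 of 1579 without trunk chondrocyte replicate 2.

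**Figure D1:**
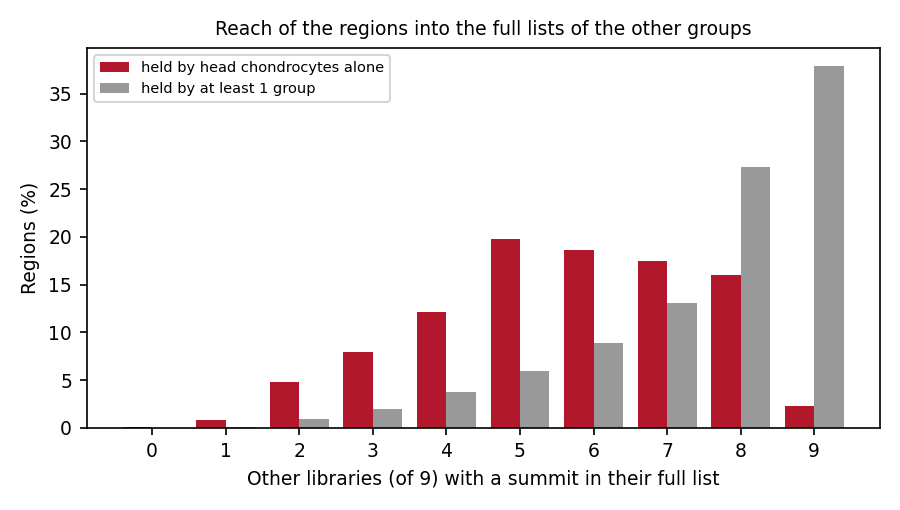
Share of regions (vertical axis, percent) by the number of the 9 libraries of the other groups that had a summit in them with full lists (horizontal axis), for the 990 regions held by head chondrocytes alone (red) and the 13540 held by at least 1 group (grey). The most frequent number was 5 in the first, with 19.8%, and 9 in the second, with 37.9%. The choice left regions held by the other groups out of the first, which favours low numbers there.

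With equal but longer lists, the trunk chondrocytes came closest to the head chondrocytes in these regions. The limit was raised in all libraries except trunk chondrocyte replicate 3, whose list ends at 8407. At 12000 summits, head chondrocyte replicates 1, 2 and 3 had a summit in 96.8%, 97.9% and 92.3% of the 990 regions. Trunk chondrocyte replicates 1 and 2 had one in 46.2% and 57.4%. The 3 head osteoblast libraries had one in 12.8%, 13.2% and 17.7%, and the 3 trunk osteoblast libraries in 12.4%, 16.5% and 13.1%. Over all held regions, trunk chondrocyte replicates 1 and 2 had one in 71.1% and 72.9%. There each head chondrocyte library had one in at least 71.9%, and each osteoblast library in at least 65.2%. In the 990 regions both long trunk chondrocyte lists stood between the head chondrocyte and the osteoblast libraries. The head and trunk osteoblast libraries overlapped. The choice required kept summits in head chondrocytes and left out regions held by the other groups. It thus favours the place of head chondrocytes above all others, here and at longer limits.

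At 20380 summits, too, both long trunk chondrocyte lists stood between the head chondrocyte and the osteoblast libraries. Trunk chondrocyte replicates 1 and 2 then had a summit in 811 (81.9%) and 888 (89.7%) of the regions, close to the 84.1% and 86.1% that they had over all held regions. Head osteoblast replicates 1, 2 and 3 had one in 339 (34.2%), 367 (37.1%) and 399 (40.3%), and over all held regions in 78.1%, 78.8% and 78.4%. Trunk osteoblast replicates 1, 2 and 3 had one in 286 (28.9%), 355 (35.9%) and 351 (35.5%), against 76.3%, 78.7% and 81.0%. In the osteoblasts these shares resembled those of the regions held by both chondrocyte groups only, where the head osteoblast libraries had a summit in 37.4%, 40.1% and 39.3% and the trunk osteoblast libraries in 39.4%, 37.4% and 41.3%. The ranges of the 3 head osteoblast libraries overlapped between the sets of regions, and those of the trunk osteoblast libraries did not, being lower in the regions held by head chondrocytes alone.

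**Figure D2:**
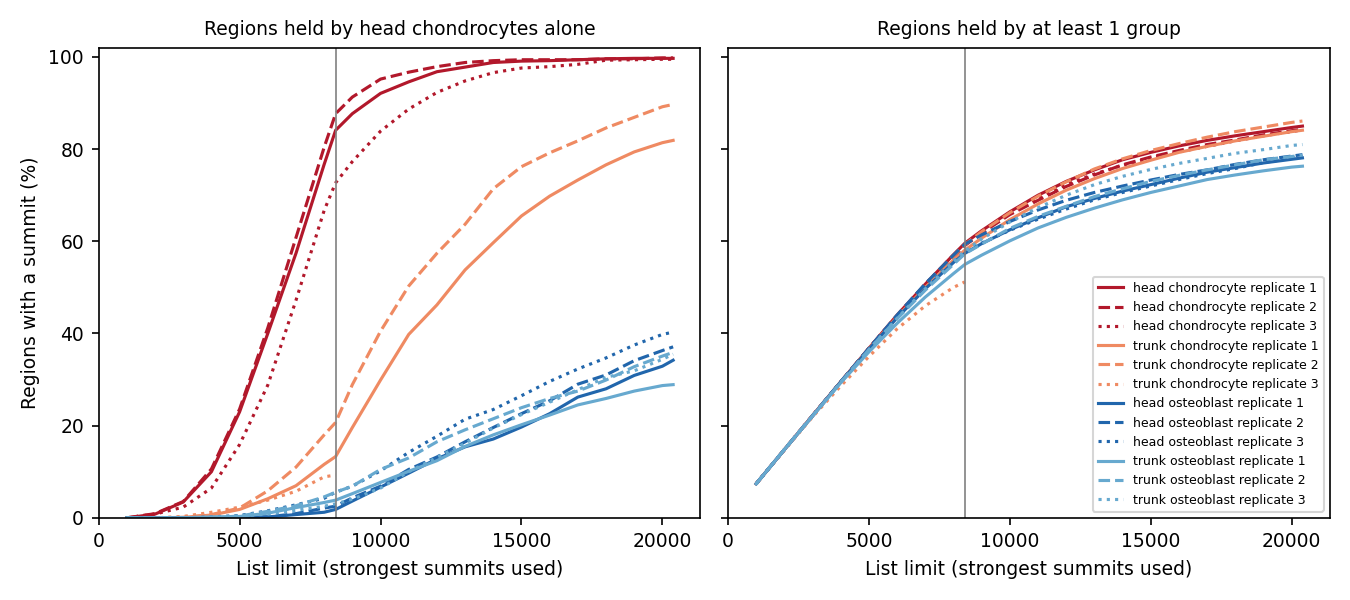
Share of regions with a summit (vertical axis, percent) in each of the 12 libraries as the number of strongest summits used grows (horizontal axis), for the 990 regions held by head chondrocytes alone on the left and all 13540 held regions on the right. The grey line is the limit of 8407 summits used for the choice. On the left, trunk chondrocyte replicates 1 and 2 rise past it to 81.9% and 89.7%. The 6 osteoblast libraries rise less, to between 28.9% and 40.3%.

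By groups, with at least 2 of 3 libraries required at 20380 summits, trunk chondrocytes held 787 of the 990 regions (79.5%), head osteoblasts 371 (37.5%) and trunk osteoblasts 323 (32.6%). Over all held regions the shares were 83.0%, 78.8% and 80.2%. The most frequent pattern was a region joined by trunk chondrocytes and by no osteoblast group, with 405 regions (40.9%). All 3 other groups joined in 209 (21.1%), and no other group joined in 123 (12.4%). Trunk chondrocytes and head osteoblasts joined in 103 (10.4%), and trunk chondrocytes and trunk osteoblasts in 70 (7.07%). Head osteoblasts, the other cell type of the same body location, joined without trunk cells in 36 regions (3.64%). Trunk osteoblasts joined as the only other group in 21 (2.12%). In the 942 regions held by trunk chondrocytes alone 44.4% were joined by head chondrocytes and no osteoblast group, 16.8% by all 3 other groups and 13.0% by none. There trunk osteoblasts were the only group to join in 61 regions (6.48%) and head osteoblasts in 6 (0.637%). These differences were not tested.

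The group that reached a region first as the limit grew was read from the second best rank of its 3 libraries. Trunk chondrocytes came first in 613 of the 990 regions (61.9%), head osteoblasts in 146 (14.7%) and trunk osteoblasts in 108 (10.9%). In most regions both long trunk chondrocyte lists had to reach the region, whereas any 2 of 3 lists sufficed in the osteoblasts. When 1 further library of a group was enough, the counts were 675 (68.2%), 155 (15.7%) and 122 (12.3%). The median limit at which trunk chondrocytes held a region, where they did so by 20380, was 12122, that of head osteoblasts 13906 and that of trunk osteoblasts 13621.

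The other classes held by a single group had the same first partner, the same cell type at the other body location. In regions held by trunk chondrocytes alone, head chondrocytes came first in 62.8%, in regions of head osteoblasts alone the trunk osteoblasts in 59.0%, and in regions of trunk osteoblasts alone the head osteoblasts in 52.7%. The 4 classes were cut from the same libraries, so these shares are not independent of each other, and their differences were not tested.

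**Figure D3:**
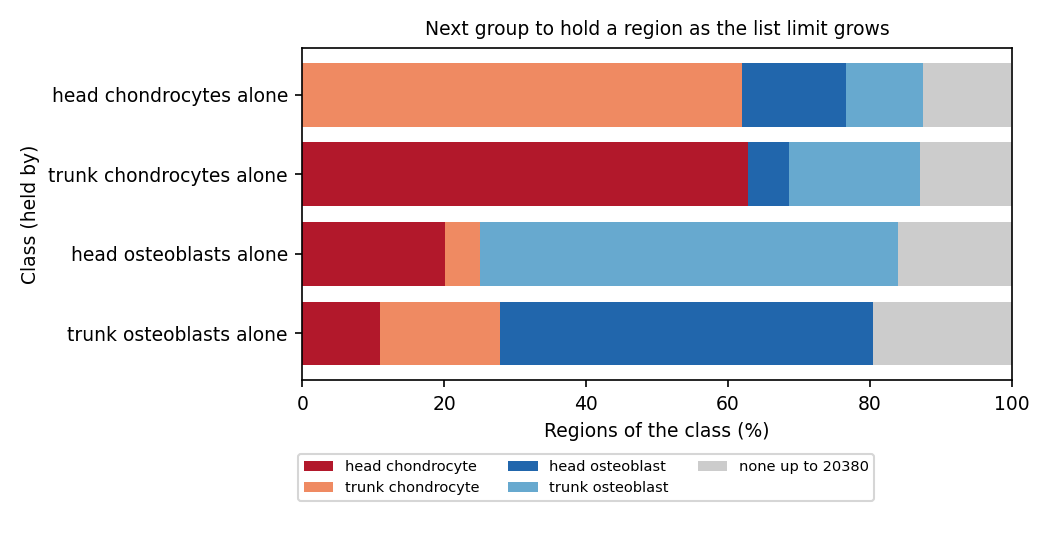
For the 4 classes of regions held by a single group (rows), the share of regions (horizontal axis, percent) by the next group to hold them as the list limit grew to 20380 summits; colours are groups and grey means that no group did. The top row shows trunk chondrocytes first in 61.9%, head osteoblasts in 14.7%, trunk osteoblasts in 10.9% and no group in 12.4%.

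How far the choice carries over to a library that it did not use was read by leaving out each library in turn. When head chondrocyte replicate 1, 2 or 3 was left out, it kept a summit in 73.7% of 598, 78.3% of 563 and 62.0% of 711 regions chosen from the other 11 libraries. In each case these were the 441 regions kept in all 3 libraries. Over all regions held from the other 11 libraries the shares were 58.4%, 57.7% and 58.4%. Over all regions held by both other head chondrocyte libraries, whatever the other groups did, they were 91.9%, 93.2% and 89.3%. These last shares include the chosen regions, and the differences were not tested. With the full list of the library left out, 99.8%, 99.6% and 99.9% of the chosen regions had a summit. Of the 13540 regions held with all 12 libraries, 96.5%, 94.1% and 92.9% had one in these full lists.

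Libraries of the other groups, left out in the same way, held fewer of the chosen regions. Trunk chondrocyte replicates 1 and 2 kept a summit in 44.5% of 1546 and 50.3% of 1579 regions, against 56.3% and 57.7% over all held regions. Trunk chondrocyte replicate 3 kept one in 22.7% of 1161, against 50.2%. The 3 head osteoblast libraries kept one in 6.09%, 8.36% and 11.6%, and the 3 trunk osteoblast libraries in 7.39%, 9.31% and 5.79%, against 53.3% to 57.4%. All 3 trunk chondrocyte libraries lay above all 6 osteoblast libraries and below all 3 head chondrocyte libraries, although the sets of regions differ with the library left out. Each set for these libraries was the 990 plus regions that the library left out had itself kept, so the rule raises its share. Among the 990 alone, trunk chondrocyte replicates 1, 2 and 3 kept a summit in 13.3%, 20.7% and 9.29%, and the osteoblast libraries in 1.82% to 5.56%.

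**Figure D4:**
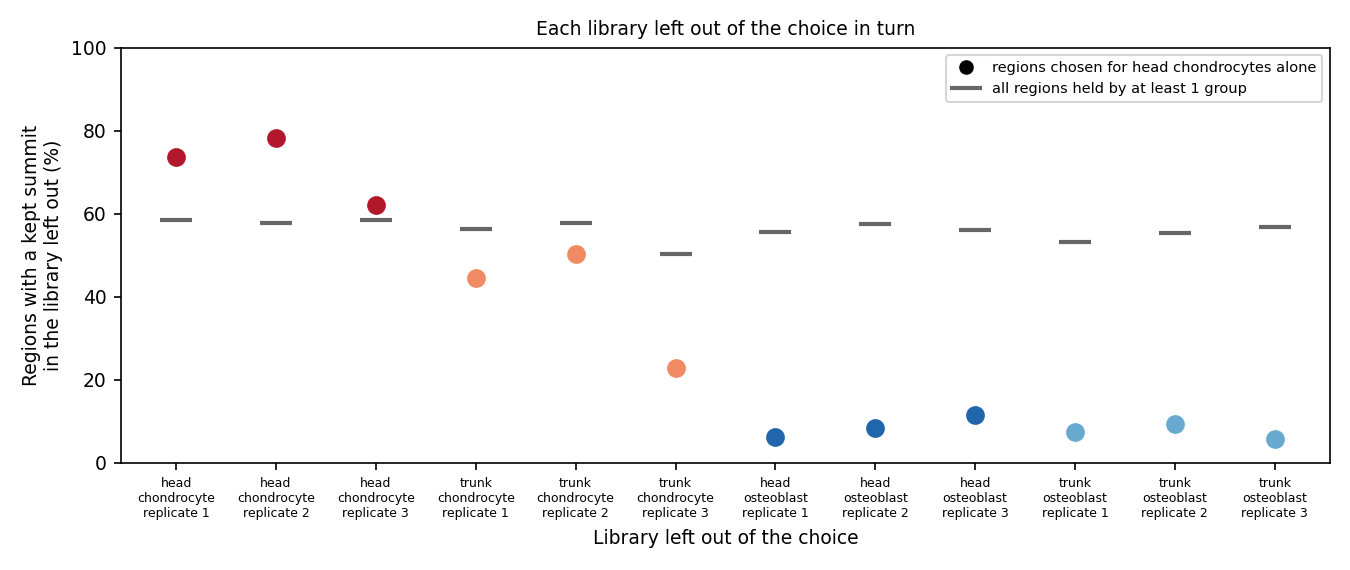
Share of regions with a summit among the strongest 8407 of the library left out (vertical axis, percent) for each of the 12 libraries (horizontal axis); points are regions chosen for head chondrocytes alone from the other 11 libraries and bars all regions held by at least 1 group in them. Head chondrocyte points lie at 62.0% to 78.3%, trunk chondrocyte points at 22.7% to 50.3% and osteoblast points at 5.79% to 11.6%.

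At the limit used for the choice, the groups were not cleanly apart in every region. No library of the other groups kept a summit in 468 of the 990 regions (47.3%), 1 did in 413 (41.7%), 2 in 90 (9.09%) and 3 in 19 (1.92%). By the rule, each other group can have a kept summit in at most 1 of its libraries here. Trunk chondrocyte replicates 1, 2 and 3 kept one in 132, 205 and 92 of the regions (13.3%, 20.7% and 9.29%), against 58.1%, 59.3% and 51.2% of all held regions. Head osteoblast replicates 1, 2 and 3 kept one in 18, 25 and 55, and trunk osteoblast replicates 1, 2 and 3 in 38, 55 and 30. The osteoblast libraries kept one in 55.0% to 59.4% of all held regions. Each trunk chondrocyte library thus intruded more often than any osteoblast library. A stricter set, kept in all 3 head chondrocyte libraries and in none of the other 9, held 192 regions. In 302 regions (30.5%) every head chondrocyte library ranked the region before every other library did, counting a missing summit as 1 rank past the end of its list. The list of trunk chondrocyte replicate 3 ends at the limit used for the choice. A region past that limit in any head chondrocyte library therefore could not show this order. The 302 could thus come only from the 441 regions kept in all 3 head chondrocyte libraries. That order held in 4.52% of all 13540 held regions, a share that includes these 302, and the choice itself favours it. The other classes held by a single group showed it too, each for the libraries of its own group. The share was 31.3% for trunk chondrocytes alone, 27.2% for head osteoblasts alone and 21.9% for trunk osteoblasts alone. The restriction to regions kept in all 3 libraries of the group also applied to both osteoblast classes. It did not apply to trunk chondrocytes alone, where 295 regions showed the order and 285 were kept in all 3 libraries. The share of that class is therefore not directly comparable with the other shares.

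The strongest of the 990 by mean rank over the head chondrocyte libraries was chromosome 12 from 44674342 to 44674570 (GRCz11). Its ranks were 1834, 1962 and 1696 in head chondrocyte replicates 1 to 3, with scores of 409.8, 141.2 and 113.7. The same region ranked 14471 and 14820 in trunk chondrocyte replicates 1 and 2, 11952, 12808 and 9228 in the head osteoblast libraries, and 19230, 9654 and 26261 in the trunk osteoblast libraries, with no summit in trunk chondrocyte replicate 3. The head chondrocyte libraries were apart from all others, and the nearest summit called was that of head osteoblast replicate 3.

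Chromosome 23 from 27714437 to 27714468 came next, at ranks 2028, 1652 and 2228 in head chondrocytes. It ranked 13576 and 12502 in trunk chondrocyte replicates 1 and 2, 16740, 8796 and 3968 in head osteoblast replicates 1 to 3, and 7868 and 14414 in trunk osteoblast replicates 2 and 3. Head osteoblast replicate 3 and trunk osteoblast replicate 2 were thus inside the limit. On chromosome 10 from 35099880 to 35100012, head chondrocyte ranks were 2393, 2750 and 1380. Trunk chondrocytes ranked it 10086, 14009 and 7424, head osteoblast replicates 2 and 3 13225 and 7970, and trunk osteoblast replicates 2 and 3 20683 and 32297. Of the summits called there, those of trunk osteoblasts were the farthest down.

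The fourth region, chromosome 12 from 5377653 to 5377752, had nearly equal head chondrocyte ranks of 2152, 2250 and 2225. Here the summits called in trunk cells of both types came before those of head osteoblasts: trunk osteoblasts ranked it 7627, 11991 and 10924, trunk chondrocyte replicates 1 and 2 14272 and 8489, and head osteoblasts 27380, 23664 and 17503.

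The weakest regions kept in all 3 head chondrocyte libraries lay close to the limit. Chromosome 11 from 2726435 to 2726486 ranked 8057, 8209 and 7912 in head chondrocytes, 15212 and 12221 in trunk chondrocyte replicates 1 and 2, 13008 and 13792 in head osteoblast replicates 2 and 3, and 15971 in trunk osteoblast replicate 3. Chromosome 20 from 54539621 to 54539662 ranked 7919, 7960 and 8100 in head chondrocytes and only 21903 and 23736 in trunk chondrocyte replicates 1 and 2. Its 1 osteoblast summit was near the end of the list of head osteoblast replicate 2, at rank 78358. The second of these thus lay farther from the other groups than the first at nearly the same head chondrocyte ranks.

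The region with no summit in any other library, chromosome 4 from 25488907 to 25488965, was of middle strength, with ranks of 6402, 8026 and 6365 and scores of 210.7, 55.5 and 49.5 in head chondrocyte replicates 1 to 3. The nearest other region held by head chondrocytes alone lay 80582 bp away. No further region met the same condition, so the 8 regions foreseen for description under it came down to this one.

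**Figure D5:**
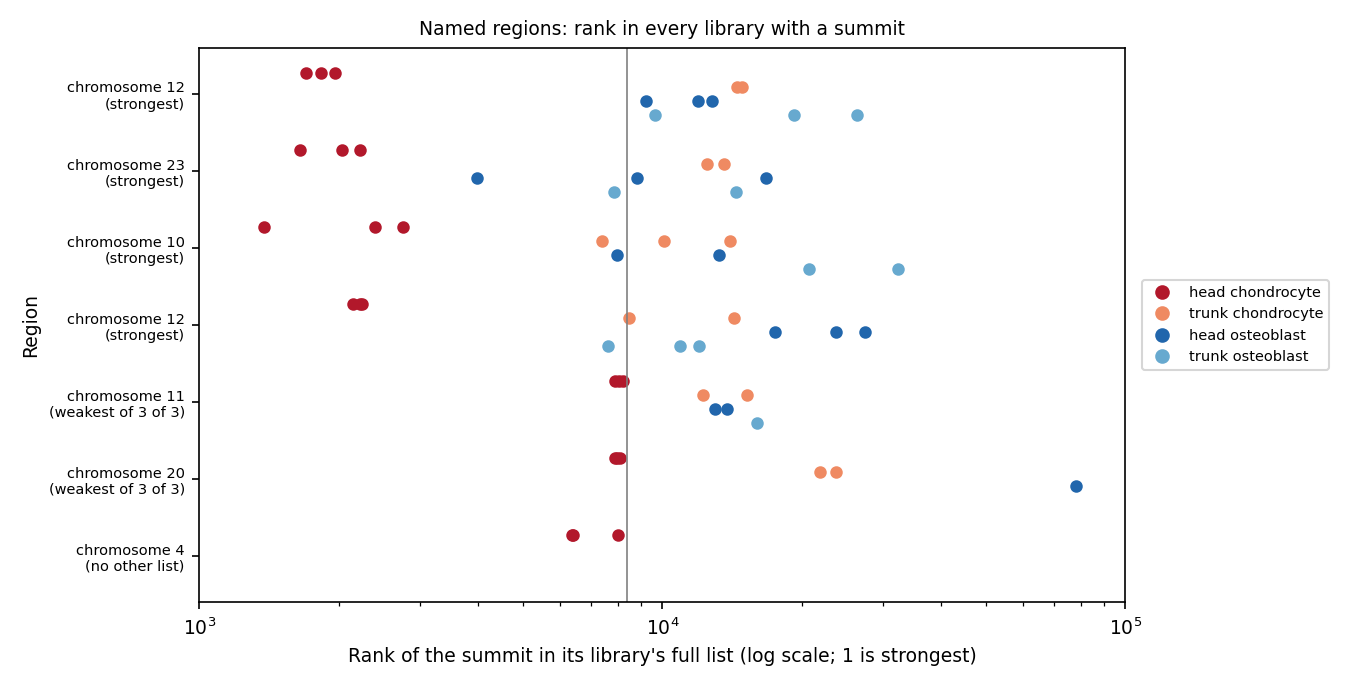
Rank of the summit (horizontal axis, log scale, 1 is strongest) in every library that had one, for the 4 strongest regions, the 2 weakest kept in all 3 head chondrocyte libraries and the region in no other list (rows), each point a library coloured by group and the grey line the limit of 8407. Head chondrocyte points lie left of all others in each row, and the other groups take different orders.

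The regions were scattered over the genome. On the 25 assembled chromosomes lay 969 of them, and 21 lay on other sequences. Their share of all held regions ran from 4.51% on chromosome 22 (17 of 377) and 4.68% on chromosome 21 (22 of 470) to 9.42% on chromosome 23 (44 of 467) and 10.2% on chromosome 4 (44 of 430). Of 915 windows of 100 kb with such a region, 846 held 1, 63 held 2 and 6 held 3. A further region of the set lay within 20 kb for 70 of the 990 (7.07%), against 10.2% in the 942 regions of trunk chondrocytes alone, 15.1% in the 1469 of head osteoblasts alone and 14.0% in the 1018 of trunk osteoblasts alone. The median distance to the next region of the same class was 351614 bp, and 277201, 142966 and 281604 bp in those classes. The classes differ in size, and the differences in spacing were not tested.

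Only chromosomes 7 and 23 held runs of 3 regions with gaps of at most 20 kb. The run on chromosome 7 covered 12284 bp from 30006866 to 30019149, and no other group held a region inside it. Its last region, from 30018995 to 30019149, was the strongest, at ranks 1736, 3347 and 2678 in head chondrocytes, 9022 and 12280 in trunk chondrocyte replicates 1 and 2, 34695 and 28319 in head osteoblast replicates 2 and 3, and 49517 in trunk osteoblast replicate 3. The first, from 30006866 to 30007009, ranked 3308, 6209 and 12261 in head chondrocytes, 10385 in trunk chondrocyte replicate 2, and 68822 and 58133 in head osteoblast replicates 2 and 3. Both were thus far down the osteoblast lists. The middle one, from 30012233 to 30012269, ranked 4709, 6516 and 9140 in head chondrocytes. Head osteoblasts ranked it 15062, 11094 and 12591, before trunk chondrocyte replicates 1 and 2 at 18394 and 18051.

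The run on chromosome 23, from 110517 to 148376, spanned 37860 bp and again held no region of another group. Its regions ranked between 3394 and 6357, between 7042 and 11329 and between 4433 and 10442 in head chondrocytes, and the head chondrocyte rank was worst in replicate 3 for the middle and the last. Other groups had summits not far past the limit. Their best rank was 9234 in the first (trunk osteoblast replicate 3) and 10455 in the last (trunk chondrocyte replicate 2). In the middle one it was 9248 (trunk osteoblast replicate 2), before head chondrocyte replicate 3 at 11329. Windows of 100 kb with 3 of the regions and the best mean rank were that of the chromosome 7 run, where they were the only held regions, chromosome 3 from 34500001 to 34600000, with 7 held regions, and that of the chromosome 23 run, with 8.

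Few of the 990 regions lay beside a region of another group. A further region held by a group other than head chondrocytes lay within 1000 bp of 21 of them (2.12%), and of 6.06% of all held regions. For all held regions, that group can be the one that held the region itself. The median distance to such a region was 19290 bp, against 14313 bp over all held regions. To the nearest region held by all 4 groups it was 76371 bp, against 58484 bp, and to the nearest held by both chondrocyte groups only 182885 bp, against 179764 bp. Local density did not stand out, with a median of 2 further held regions within 50 kb in the 990 and in all held regions alike.

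In the 986 regions with a summit in all 3 full head chondrocyte lists, the strongest summits of these 3 libraries spanned a median of 25 bp, with quartiles of 10 and 52 bp. Over all held regions with such summits the median was 21 bp. The other classes were measured in the same head chondrocyte libraries, also where head chondrocytes did not hold the region. Their values are therefore not spreads within the group that held them. It was 38 bp in regions held by trunk chondrocytes alone, 30 bp in those of head osteoblasts alone and 39 bp in those of trunk osteoblasts alone, 21 bp in regions held by both chondrocyte groups only, 17 bp in those held by both head groups only and 13 bp in those held by all 4 groups. Region width had a median of 93 bp, against 82 bp over all held regions, and a region held a median of 9 summits of all lists, against 11.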

How the data were processed

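The submitters' processing notes name the danRer11 build (GRCz11) and the tools MACS2, Bowtie2, fastp, SAMtools, deepTools and bedtools, without versions or settings. Summit lists were deposited 1 per library, so peaks were not called on pooled replicates. Column 5 of each deposited list is the peak caller's −log10 score, of either a p-value or a q-value (not stated). Scores served only to rank summits within a list, ties in file order. Per the labels' protocols, transposase amount and time were adjusted to cell number, and 3 libraries (replicate 1 of both osteoblast groups and of trunk chondrocytes) lost files and start from the alignment after read shifting. Peak names carry another replicate number than the title in 7 lists, none of head chondrocytes, and titles were followed. No pair of lists shared more than 5.32% of the shorter list at the same base.

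Positions count from 1. Regions were chained within 250 bp, ranked, classed and counted with Python 3.11.15, NumPy 2.4.6 and pandas 2.3.3. The code was checked on simulated lists of equal length with planted regions far from the limit. That check does not show how the choice behaves near the limit or with unequal lists. The regions named were those of lowest mean rank (4), those of highest mean rank kept in 3 of 3 libraries (2), those in no other list, the 3 fullest windows and the runs of at least 3. The equal lists of 20380 summits, the length of the second shortest list, were added after the data were seen. The members and lists were chosen with earlier results of these data known. Planned descriptions of genes, motifs and base composition needed an annotation and a genome of this build and were not made.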

Additional observations from a re-analysis of the deposited data

How the results depend on the processing

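Chaining within 100 or 500 bp, leaving out regions with another group within 1000 bp and using chromosomes only kept each of 6 counts within 1.5 times, except that 3 regions had no summit in other lists with 100 bp. The counts were those of all regions, of those kept in every head chondrocyte library, of those in no other full list, and of those in at least 1 trunk chondrocyte, head osteoblast and trunk osteoblast list, in that order. They were 990, 441, 1, 986, 926 and 769. With the strongest 4000 summits they were 414, 180, 0, 414, 405 and 354, with 57 regions shared. With full lists they were 12802, 4620, 3828, 6556, 4647 and 3246, with 23 shared. Full head chondrocyte lists are longer than most others. The strict rule (3 of 3 and none of 9) gave 192, 192, 1, 190, 185 and 143. Without trunk chondrocyte replicate 3, at 20380 summits, they were 2808, 1330, 42, 2634, 2125 and 1645, with 127 shared. Without the 3 libraries with file loss they were 1691, 860, 1, 1682, 1588 and 1363, and all 990 were among the 1691. That overlap was fixed by the rule. All 3 belong to other groups, which then needed both remaining libraries to hold a region. The choice of regions thus depends on the list limit, and the cause was not tested beyond the construction of each setting. Leaving out 1 library gave 563 to 1579, 451 to 820, 1 to 9, 560 to 1539, 540 to 1483 and 454 to 1247. Of 126 values under alternatives, 77 stayed within 1.5 times and 49 did not. The later counts are parts of the first, so these values are not independent, and a count can move while its share does not. For example, the share in at least 1 head osteoblast list was 93.5% in the main choice. It was 94.1% without trunk chondrocyte replicate 1, where the count moved to 1455, and 36.3% with full lists. No paired analysis was possible because these results come from no test. List length limits what a missing summit shows, above all in trunk chondrocyte replicate 3.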

Other observations

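The 8 regions with a summit in exactly 1 library of the other groups, singled out after their values were seen, all had it in trunk chondrocyte replicate 2, the longest trunk chondrocyte list at 55274 summits. Its rank there ran from 12146, on chromosome 4 from 5685942 to 5685953, to 50040, on chromosome 24 from 41532614 to 41532676. The first of these ranked 10366, 7610 and 7514 in head chondrocyte replicates 1 to 3, and the second 6047, 5795 and 17649. None of the 8 was kept in all 3 head chondrocyte libraries, and that on chromosome 19 from 7223311 to 7223312 had no summit in head chondrocyte replicate 2. On chromosome 13 from 25262655 to 25262709, the strongest of those with a summit in every head chondrocyte list, the ranks were 6679, 4791 and 12066, with 18991 in trunk chondrocyte replicate 2.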
